A study of Mus musculus with 6 samples.

Results

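Selectin ligands are sugar structures on leukocytes, and the genes examined here encode PSGL-1, their main carrier protein on T cells, and 7 Golgi enzymes that build them. The 8 genes are Selplg, which encodes PSGL-1, Gcnt1, B4galt1, St3gal1, St3gal4, St3gal6, Fut4 and Fut7. The pathway was chosen by the change of Fut4, which is among the largest falls of this data set, and every probe set that the array annotation pairs with exactly 1 of these symbols was read. That gave 15 of the 45101 probe sets and 8 of the 18193 genes with such a probe set.

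Transcripts were measured on Affymetrix mouse genome 430 2.0 arrays in 6 samples of cytotoxic T cells from C57Bl/6 mice with the P14 T cell receptor, a transgenic receptor for gp33, a peptide of lymphocytic choriomeningitis virus. Cells of the spleen were activated with gp33 for 24 h and infected with a retrovirus that encodes GFP joined to a phosphorylation-deficient mutant of HDAC7, a class IIa histone deacetylase. Sorting gave 3 GFP positive samples, which carry the mutant, and 3 GFP negative samples, the control. Both groups share the receptor, the peptide and the exposure to virus, so the control consists of cells of the infected cultures that did not show GFP. No empty vector was analysed here. Replicates are labelled as biological, but whether each is its own animal or culture is not said, and p-values then measure no more than the spread among these 6 arrays, whose number limits the precision. In bulk samples, fewer cells that express a gene and less RNA per cell cannot be told apart.

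Selectins are lectins on endothelium, platelets and leukocytes that catch passing leukocytes and let them roll along the vessel wall. They bind the sialyl Lewis X structure, which is best presented on branched O-glycans at the tip of PSGL-1. In the Golgi, Gcnt1 opens the core 2 branch, B4galt1 adds galactose to it, the St3gal enzymes cap galactose with sialic acid, and Fut7 and Fut4 add the fucose that completes the structure. Naive T cells make little of it, and activated effector T cells acquire it as they gain entry to inflamed tissue.

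The members moved in different directions. The brighter Fut4 probe set went from 4.80 ± 0.03 (log2 signal, SD, n = 3) in GFP negative to 1.60 ± 0.12 (n = 3) in GFP positive cells. Of 5 St3gal6 probe sets, 3 fell, by 0.62 to 1.67 on the log2 scale. In contrast B4galt1 rose by 1.04, Fut7 by 0.54, Selplg by 0.51 and St3gal1 by 0.37, the last with a call that most other settings ended. St3gal4 did not pass the test, with a change of 0.27, and both Gcnt1 probe sets stayed under the level at which probe sets were tested. Outside Fut4, 9 of 13 member probe sets were tested and 7 passed limma at an adjusted p of 0.05, 4 higher and 3 lower. Over all 27022 probe sets tested 32.5% passed, 19.3% higher and 13.2% lower. Because Fut4's change in this same comparison chose the pathway, Fut4 is described without a test, and nothing is read from the members' count.

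The sequences before the starts of Fut4 and St3gal6, whose probe sets fell furthest, and of B4galt1, which rose furthest, are shown for comparison. Each is the 250 bases before a start annotated by RefSeq (build GRCm38.p6), written 5′ to 3′ on the strand of the gene. Capitals mark GC boxes (GGGCGG on either strand) and, in B4galt1, a match to the STAT motif TTCNNNGAA.
Fut4, chr9:14752123-14752372, minus strand: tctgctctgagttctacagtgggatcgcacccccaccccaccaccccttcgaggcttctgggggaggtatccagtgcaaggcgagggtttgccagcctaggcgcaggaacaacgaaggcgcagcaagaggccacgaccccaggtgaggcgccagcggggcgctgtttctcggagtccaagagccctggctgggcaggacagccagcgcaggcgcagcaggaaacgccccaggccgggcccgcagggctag
St3gal6, upstream start, chr16:58524254-58524503, minus strand: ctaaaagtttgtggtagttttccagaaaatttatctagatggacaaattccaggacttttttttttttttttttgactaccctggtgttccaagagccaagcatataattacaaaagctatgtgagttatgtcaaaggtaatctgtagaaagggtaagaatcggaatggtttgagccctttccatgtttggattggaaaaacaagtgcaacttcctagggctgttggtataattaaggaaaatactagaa
St3gal6, downstream start, chr16:58523427-58523676, minus strand: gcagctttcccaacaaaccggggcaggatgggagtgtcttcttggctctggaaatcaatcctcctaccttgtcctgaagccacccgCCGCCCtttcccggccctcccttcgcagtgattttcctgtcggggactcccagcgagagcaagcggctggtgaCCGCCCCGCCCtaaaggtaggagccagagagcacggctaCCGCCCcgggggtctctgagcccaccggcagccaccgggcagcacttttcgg
B4galt1, chr4:40853985-40854234, minus strand: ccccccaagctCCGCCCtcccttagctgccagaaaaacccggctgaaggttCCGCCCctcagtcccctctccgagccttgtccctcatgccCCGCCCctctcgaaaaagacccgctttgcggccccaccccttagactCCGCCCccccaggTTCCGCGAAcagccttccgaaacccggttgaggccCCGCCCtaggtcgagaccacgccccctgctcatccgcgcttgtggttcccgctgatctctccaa

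Fut4 and the upstream St3gal6 start have 0 GC boxes in this window, the downstream St3gal6 start has 4 and B4galt1 has 5. In the member windows not shown, St3gal4 has 3, the Fut7 starts have 1 and 0, and each Gcnt1 start has 0. A GC box stands in 32.7% of 32841 such windows of mouse genes. The upstream St3gal6 window is AT-rich, with 34.8% G and C and 1 CG dinucleotide, whereas Fut4 has 67.6% and 16 CG dinucleotides and B4galt1 66.4% and 19. Other motifs searched on both strands were the E-box CACGTG, the T-box site TCACACC, the KLF site CACACCC, which can overlap it, and MEF2. None of these other motifs matched in any of the 10 windows of the 6 member genes with a window (Gcnt1, B4galt1, St3gal4, St3gal6, Fut4 and Fut7). They occur in 6.02%, 3.33%, 6.93% and 0.509% of all windows. The STAT motif occurs in 7.02% and matched in B4galt1, 99 bases before the start. These are matches of letters and show no binding. Selplg and St3gal1 have no entry in the table used.

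Median log2 signal was 1.69 to 1.72 in GFP negative and 1.62 to 1.66 in GFP positive arrays, so the groups lay close together without overlap. The Bio and Cre hybridisation controls moved the other way, with higher signal in GFP positive arrays by 0.13 to 0.28 on 18 probe sets and no overlap on 14 of them. Their part in the smaller changes of the members was not tested. The mean signal of the TrpnX controls, bacterial sequences that serve here as a background level, ran from 0.60 to 0.72. Probe sets with a mean under 1.27, the 40th percentile, were not tested. The 3′ minus 5′ signal of the actin control, a measure of RNA integrity, was 0.43 to 0.51 in the control and 0.48 to 0.53 in GFP positive samples. Hdac7, carried by the construct, read 4.83 ± 0.03 in the control and 8.15 ± 0.05 in GFP positive samples on its representative probe set (n = 3 each). Its other probe set, 1420813_at, went from 6.74 ± 0.08 to 6.19 ± 0.02 (limma adjusted p = 0.0022). All 8 T cell markers read, among them Cd3e, Cd8a and Thy1, were bright, at mean signals of 6.28 to 11.18, and 5 of them rose and 1 fell in GFP positive cells. Their summed linear signal was 5623 to 6791 in the control and 8134 to 9203 in the GFP positive samples. The 7 myeloid markers summed to 22.7 to 25.5 and 24.8 to 26.9, with Cd68 called higher and Itgam, Cd14 and Adgre1 under the test level. The 5 B cell markers summed to 31.7 to 42.4 and 30.3 to 36.7, mostly from Cd79b, with none called. The 3 CD4 T cell markers summed to 19.3 to 21.2 and 22.1 to 24.8, with Zbtb7b called higher. Cd4 itself changed by -0.05 and did not pass (limma adjusted p = 0.67). Foxp3 was under the test level, with a change of -0.45. NK cell, erythroid and stromal markers summed to at most 11.2 in any sample, with none called. The part of other cells in the results was not tested.

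**Figure D1:**
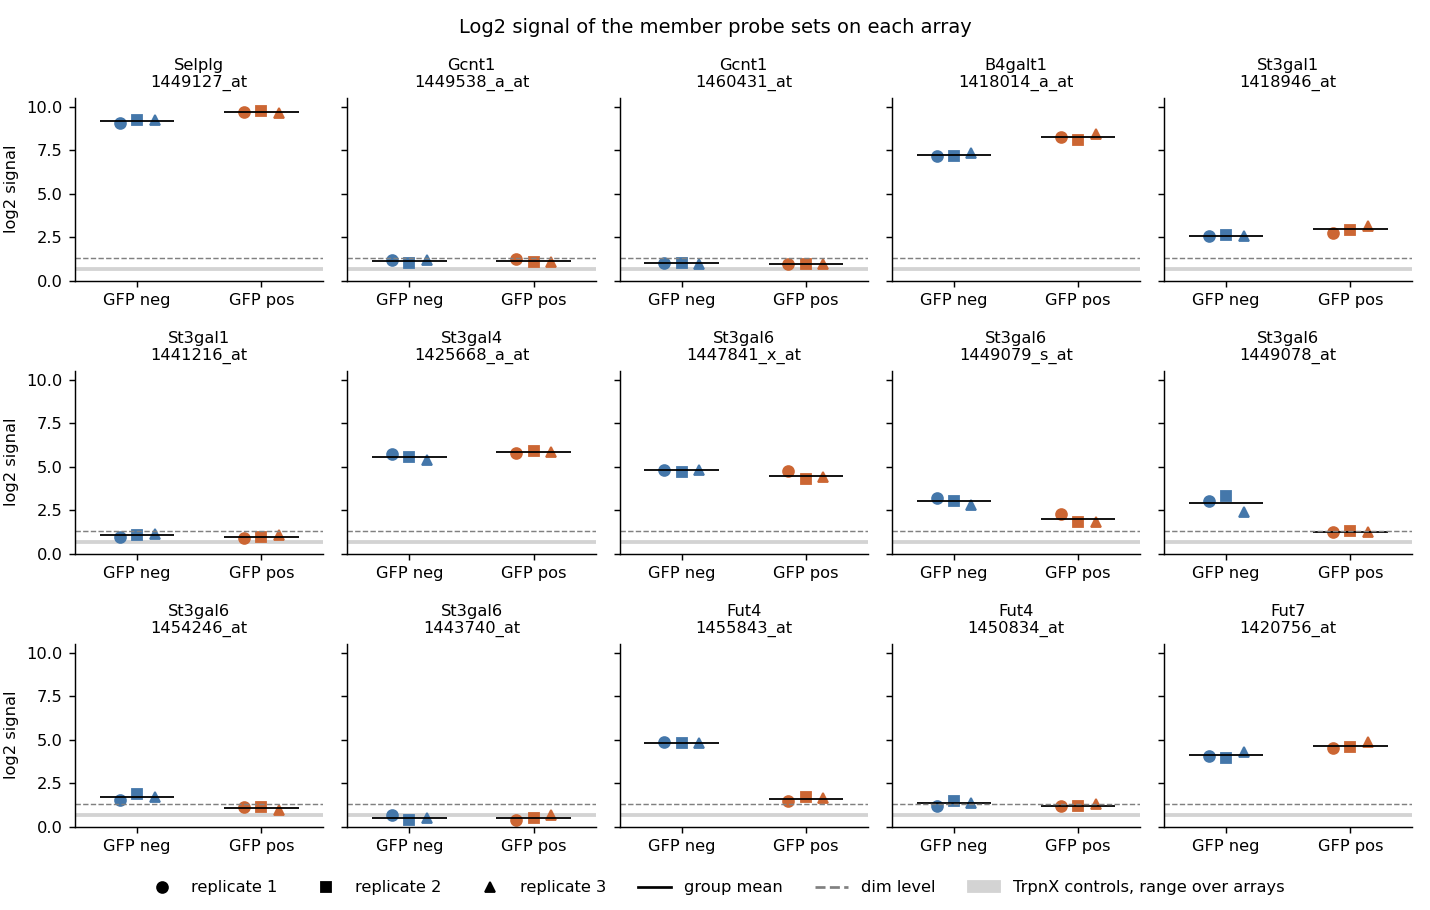
Log2 signal (vertical axis) of the 15 member probe sets in 3 GFP negative and 3 GFP positive samples; symbols mark the replicate number, black lines the group means, the dashed line the level of 1.27 under which probe sets were not tested, and the grey band the TrpnX controls. The brighter Fut4 probe set is near 4.8 in all GFP negative and at or under 1.70 in all GFP positive samples, and B4galt1 is above 8 in all GFP positive samples.

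PSGL-1, the product of Selplg, is a mucin whose tip carries the selectin-binding glycans. Its only probe set read 9.03, 9.23 and 9.24 in GFP negative samples 1 to 3 and 9.67, 9.73 and 9.62 in GFP positive samples 1 to 3. Every GFP positive sample lay above every GFP negative one. The rise was 0.51 ± 0.09 (SE) on the log2 scale, or 1.42-fold, with a limma adjusted p of 0.0049. It kept its call under all 15 other settings tried, at 0.39 to 0.54, and since the probe set is bright the change was nearly the same, 0.48, with 32 added in linear units, which damps low signals.

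Gcnt1, which opens the core 2 branch on which PSGL-1 carries its ligands, gave no usable signal. One probe set had group means of 1.10 (GFP negative) and 1.12 (GFP positive), and the other of 1.00 and 0.96. All 12 readings lay between 0.94 and 1.26, above the TrpnX means and under the level tested, with overlapping groups. The dimmer one shows how little such signals resolve, since it read exactly 1.03 in both GFP negative 1 and GFP negative 2, at a value that occurs 1555 times in the deposited table. No statement on Gcnt1 follows at this signal.

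B4galt1 encodes the main enzyme that adds galactose to N-acetylglucosamine. It read 7.18, 7.15 and 7.31 in GFP negative and 8.25, 8.10 and 8.41 in GFP positive samples, in order of replicate number. The 2 groups were far apart, and the 3 differences between samples of the same number were 1.07, 0.95 and 1.10. The rise of 1.04 ± 0.11 (SE), or 2.05-fold, had a limma adjusted p of 4.9e-04. B4galt1 ranked 440th by rise among 13194 genes tested. Under the 15 other settings its rise was 0.90 to 1.11, always past the threshold.

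Among the member sialyltransferases, St3gal6 gave the largest changes of the values as deposited, on dim probe sets. Its product caps the galactose of glycoproteins and glycolipids with sialic acid and contributes to selectin ligands in leukocytes. The probe set 1449078_at read 3.01, 3.33 and 2.37 in GFP negative and 1.22, 1.27 and 1.22 in GFP positive samples. The probe set 1449079_s_at read 3.20, 3.05 and 2.80 against 2.27, 1.83 and 1.80, and 1454246_at read 1.53, 1.88 and 1.68 against 1.15, 1.14 and 0.95. In each of these 3 the GFP positive samples lay below all GFP negative samples. Their changes were -1.67 ± 0.22, -1.04 ± 0.16 and -0.62 ± 0.11 (SE), with limma adjusted p of 0.0012, 0.0022 and 0.0053.

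The St3gal6 probe sets did not all show the same. The brightest, 1447841_x_at, read 4.81, 4.71 and 4.80 in GFP negative and 4.77, 4.30 and 4.39 in GFP positive samples. The groups overlap, since GFP positive 1 lies with the control samples, and the change of -0.29 ± 0.13 did not pass (limma adjusted p = 0.126). Without GFP positive 1 it was -0.43 and passed (limma adjusted p = 0.013). By Affymetrix naming, the suffix x marks sets with probes that can also bind other sequences, and s marks probes shared between transcripts. The fifth, 1443740_at, lay at the TrpnX level with a mean of 0.51 in both groups. A gene summary by the brightest probe set therefore carries St3gal6 as not passing.

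The size of the St3gal6 falls rests on low signals. In GFP positive cells the 3 probe sets averaged 1.24, 1.97 and 1.08, of which 1.24 and 1.08 lie under the level tested. With 32 added in linear units the changes shrank to -0.21, -0.16 and -0.05. There 1454246_at lost its call (limma adjusted p = 0.060) while the other 2 kept theirs. Under that setting the change of St3gal4 was 0.17. On 1449078_at the values of GFP negative 1 and GFP positive 2 occur 312 and 1839 times in the table, so they are not particular to this gene. Leaving out single samples, or GFP negative 1 and GFP positive 3 together, gave changes of -1.93 to -1.46 for that probe set, past the threshold each time.

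St3gal1 sialylates the unbranched core 1 O-glycan and so competes with Gcnt1 for the same acceptor. Its brighter probe set read 2.58, 2.59 and 2.54 in GFP negative and 2.76, 2.92 and 3.15 in GFP positive samples. The groups did not overlap, but GFP positive samples spread more, with an SD of 0.20 against 0.03. The rise of 0.37 ± 0.11 (SE) had a limma adjusted p of 0.038. That call ended under 11 of the 15 other settings, among them the replicate number as a block (adjusted p = 0.055), median centring (0.26, adjusted p = 0.080) and leaving out any 1 sample except GFP positive 1 (0.27 to 0.38, adjusted p from 0.084 to 0.107). The second probe set averaged 1.04 and 0.97 and was not tested.

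St3gal4, which with St3gal6 acts on the outer galactose of selectin ligands, read 5.72, 5.57 and 5.40 in GFP negative and 5.79, 5.87 and 5.86 in GFP positive samples. All GFP positive samples lay above all GFP negative ones, by as little as 0.07. The change of 0.27 ± 0.10 (SE) did not pass (limma adjusted p = 0.074). Without GFP negative 1 it was 0.35 and passed, at an adjusted p of 0.0496. It shrank to 0.14 with quantile normalization (limma adjusted p = 0.33) and to 0.16 with median centring (limma adjusted p = 0.241). The changes of the brighter St3gal1 probe set and of St3gal4, which did not pass, were positive. Those of 3 St3gal6 probe sets were negative.

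Fut4 and Fut7 encode the fucosyltransferases that finish sialyl Lewis X in leukocytes, with Fut7 the dominant enzyme for PSGL-1 and Fut4 a contributor, mainly to binding of E-selectin. The brighter Fut4 probe set read 4.84, 4.79 and 4.78 in GFP negative and 1.47, 1.70 and 1.62 in GFP positive samples. The lowest control sample lay 3.07 above the highest GFP positive sample, and the differences within replicate numbers were -3.37, -3.09 and -3.15. The change of -3.20 was the 7th largest fall among 27022 probe sets, and the 6th among 13194 genes.

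The GFP positive level of Fut4 lies little above the test level of 1.27, so the size of its fall depends on how low signals were treated. With 32 added in linear units the change was -0.77. Rescaling the arrays barely moved it, to -3.27 by quantile normalization and -3.32 by median centring, and it stayed between -3.26 and -3.14 when samples were left out. The second Fut4 probe set read 1.17, 1.49 and 1.36 in GFP negative and 1.16, 1.19 and 1.27 in GFP positive samples. Those groups overlap near the lowest level tested, with a change of -0.13, and no direction is given for that probe set. A probe set of the pseudogene Fut4-ps1, examined after its values were seen, went from 3.14 ± 0.07 to 2.67 ± 0.06 (n = 3), a change of -0.47.

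Fut7 moved the other way. Its probe set read 4.05, 3.94 and 4.28 in GFP negative and 4.50, 4.55 and 4.85 in GFP positive samples, and the groups did not overlap. The rise was 0.54 ± 0.13 (SE), 1.45-fold, with a limma adjusted p of 0.016. It fell to 0.21 with 32 added in linear units and kept its call there. The call ended with quantile normalization (0.38, adjusted p = 0.052), without GFP negative 1 (0.52, adjusted p = 0.057), without GFP negative 2 (0.47, adjusted p = 0.058) and without GFP negative 1 and GFP positive 3 together (0.41, adjusted p = 0.112).

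**Figure D2:**
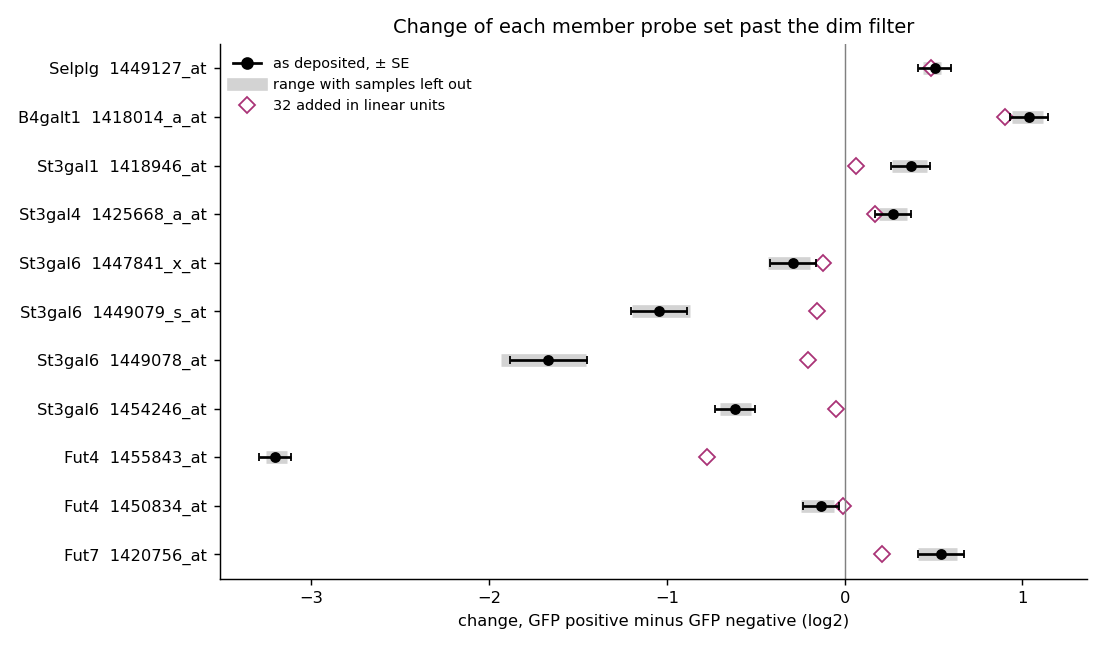
Change in log2 signal (horizontal axis, GFP positive minus GFP negative) of the 11 member probe sets past the dim filter, with the SE of the fit as bars, the range when samples are left out in grey, and the change with 32 added in linear units as open diamonds. With the added 32 Selplg changes by 0.48 and B4galt1 by 0.90, while Fut4 shrinks from -3.20 to -0.77 and the St3gal6 falls to between -0.21 and -0.05.

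Across the tested members outside Fut4, the groups did not overlap in 8 of 9 probe sets, 5 higher and 3 lower, against 48.2% of all probe sets tested. All 3 lower ones belong to St3gal6, and the 5 higher include St3gal4, which did not pass. Nothing is read from this count either. The bright members Selplg and B4galt1 rose, while the falls of Fut4 and St3gal6 ended at or near the dim level. The comparison over all probe sets had 345 with a fall and 932 with a rise of more than 1 on the log2 scale, so B4galt1 and 1449079_s_at of St3gal6 stand just inside those groups.

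**Figure D3:**
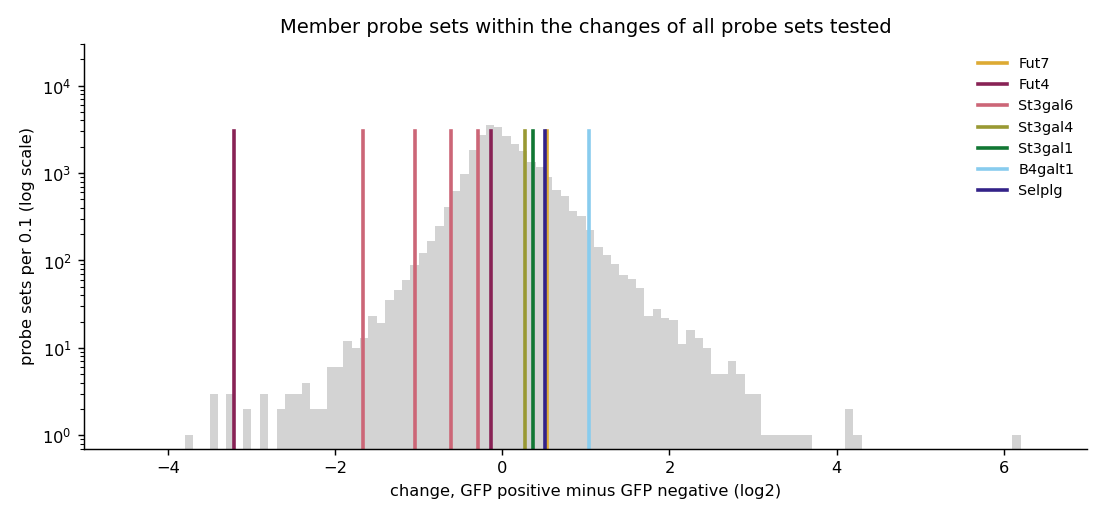
Number of probe sets (vertical axis, log scale) by change in log2 signal in steps of 0.1 (horizontal axis, GFP positive minus GFP negative) for the 27022 probe sets tested, with member probe sets as coloured lines. The line of the brighter Fut4 probe set, at -3.20, stands in the far left tail, and the line of B4galt1, at 1.04, on the right shoulder.

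The genes whose pattern over the 6 arrays was most like that of Fut4 were Tex2, Ndufa12, Pdcd2l, Riox2 and Slc19a1, by Pearson correlation among 13193 other tested genes. Their correlations ran from 0.9987 to 0.9997. Of the 13193 genes, 375 had a correlation over 0.98. The measure mostly ranks genes by how small their spread within a group is next to their difference between groups. The 5 genes fell by very different amounts. Tex2 went from 7.20 ± 0.07 to 4.62 ± 0.09 and Slc19a1, the reduced folate carrier gene, from 7.25 ± 0.04 to 5.77 ± 0.10 (n = 3 per group). Ndufa12, a subunit of respiratory complex I, changed by -0.55, Pdcd2l by -0.66 and Riox2, a ribosomal oxygenase gene, by -1.26.

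The wider pathway around the members was read from a list of 75 other genes, of which 72 have a probe set of their own in the annotation and 62 passed the dim filter. Of these 62 genes, 15 rose, 9 fell and 38 did not pass, so 38.7% passed. Over all 13194 genes the share was 37.5%, with 22.6% higher and 14.9% lower, and the median change was 0.05 in the list and -0.02 over all genes. The list as a whole therefore stands near the background, and its individual genes are given by role. After median centring of the arrays the split was 11 higher and 14 lower. That setting moved the median change of the probe sets tested from -0.02 to -0.14 and the rise of B4galt1 from 1.04 to 0.92. The median over all probe sets was lower in GFP positive arrays, so centring on it would have raised the changes. The centring therefore rested on another set of probe sets. Over all probe sets tested it turned the share of calls that are higher from 59.4% to 39.3%.

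**Figure D4:**
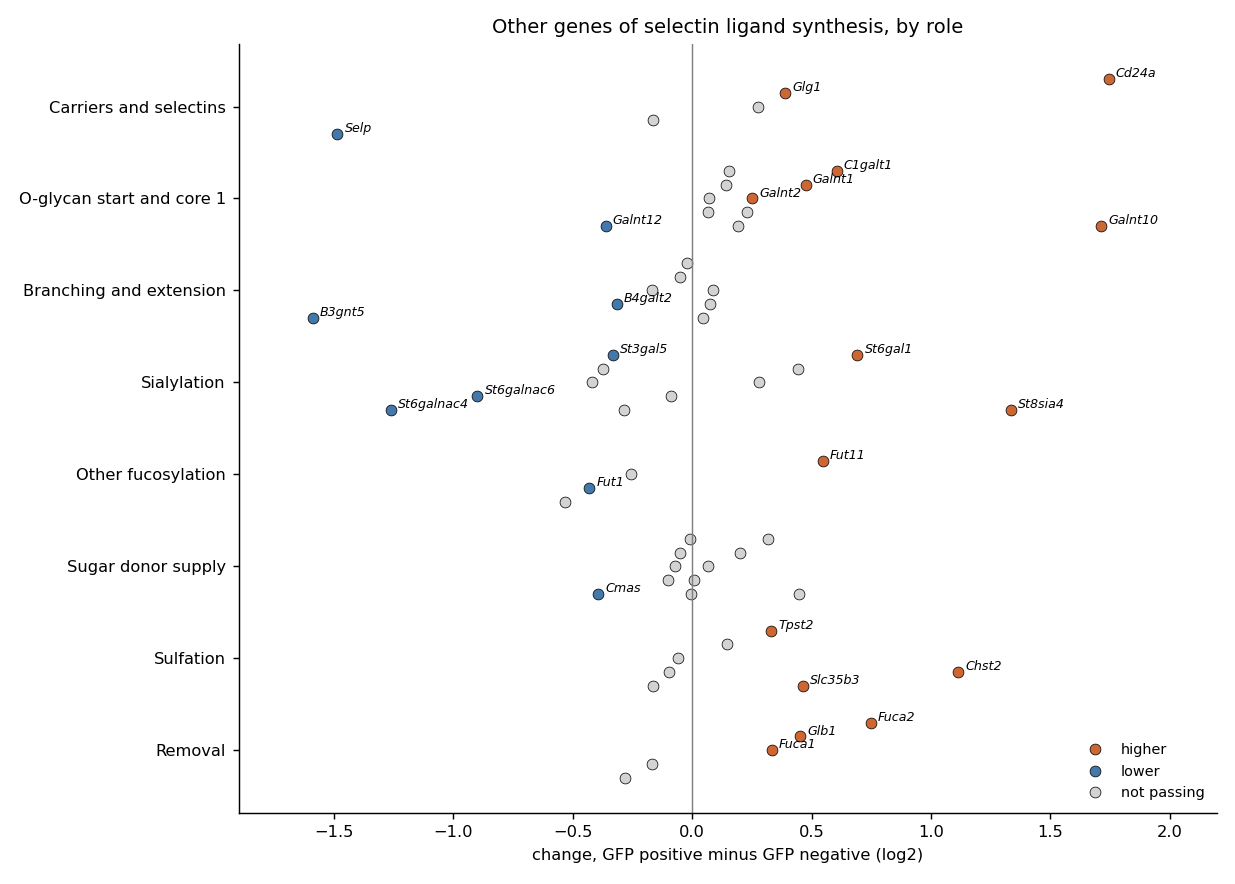
Change in log2 signal (horizontal axis, GFP positive minus GFP negative) of the 62 other pathway genes tested, 1 point per gene by role, coloured by whether limma called the gene higher, lower or not passing; vertical scatter within a role only separates points. Calls lie on both sides in 4 of the 8 roles, with Cd24a and Galnt10 highest and B3gnt5 and Selp lowest.

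Of the carriers and selectins, 5 were tested, with 2 called higher and 1 lower. Cd24a, a small mucin-like protein that can carry ligands of P-selectin, read 7.18, 7.84 and 7.58 in GFP negative and 9.40, 9.23 and 9.21 in GFP positive samples. Its rise of 1.74 ± 0.16 (SE; limma adjusted p = 3.8e-04) was the largest of the list, with 0.90 to 1.63 on other probe sets. Glg1, which encodes an E-selectin ligand of leukocytes, rose by 0.39 and lost its call under 7 of 15 settings, among them leaving out any 1 sample except GFP positive 1 (0.31 to 0.42). Selp, the P-selectin gene itself, went from 3.06 ± 0.31 to 1.57 ± 0.23, a fall of 1.49 that became 0.21 with 32 added in linear units. Of its 6 values, those of GFP negative 1 and GFP positive 1 occur 312 and 1028 times in the table.

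For the start of O-glycans and core 1, 11 genes were tested, and limma called 4 higher and 1 lower. Galnt10, one of the enzymes that place the first sugar on serine or threonine, went from 3.30 ± 0.25 to 5.01 ± 0.09. Its other probe sets changed by 1.47 to 2.10. The Galnt10 value of GFP negative 1 occurs 194 times in the deposited table. C1galt1, the core 1 synthase and so the source of the acceptor for Gcnt1 and St3gal1, rose by 0.61 ± 0.10 (limma adjusted p = 0.0035). Galnt1 rose by 0.48 and Galnt12 fell by 0.36. The call of Galnt12 ended without GFP negative 1 and GFP positive 3 together (-0.38).

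For branching and extension, limma called 2 of 8 tested genes lower and 0 higher. B3gnt5, which starts the lacto-series chain of glycolipids, read 4.39, 4.55 and 4.06 in GFP negative and 2.40, 3.01 and 2.81 in GFP positive samples. The change of -1.59 ± 0.18 was -0.43 with 32 added. The B3gnt5 value of GFP positive 2 occurs 312 times in the deposited table. B4galt2, a relative of B4galt1, fell by 0.32 from a dim 2.00, and that call ended under 10 of 14 settings. The galactosyltransferase genes B4galt3, B4galt4 and B4galt5, named after their values were seen, did not pass, with changes of 0.07, 0.04 and -0.05. The sign of each turned under at least 1 other setting, and no direction is given for them.

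Other sialyltransferases split, with 2 higher, 3 lower and 6 not passing among 11. St8sia4, which builds polysialic acid, went from 6.39 ± 0.15 to 7.72 ± 0.15, a rise of 1.33 ± 0.12 (limma adjusted p = 3.1e-04). St6gal1, which caps N-glycans with sialic acid in another linkage, rose by 0.69 on its brightest probe set, while its second tested one changed by -0.17. St6galnac4, which adds a further sialic acid to sialylated core 1, read 6.39, 6.52 and 6.69 in GFP negative and 5.13, 5.35 and 5.34 in GFP positive samples. Its fall of 1.26 ± 0.11 (limma adjusted p = 3.1e-04) was matched by -1.36 on its second probe set and remained at -0.82 with 32 added. St6galnac6, which acts on glycolipids, fell by 0.90, or 0.30 with 32 added.

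Of the other fucosyltransferases, 4 of 6 were tested. Fut11 rose by 0.55 on its brightest probe set, with -0.09 to 0.25 on others, and Fut1, which makes the H antigen, fell by 0.43 between dim levels of 1.61 and 1.18. Both calls ended under several settings, for Fut11 among them leaving out any 1 GFP negative sample (0.48 to 0.58) and for Fut1 leaving out GFP negative 1 or 3 or GFP positive 2 or 3 (-0.41 to -0.38). The remaining 2 did not pass.

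Among genes that supply the sugar donors, only 1 of 11 tested was called by limma, as lower, with changes between -0.39 and 0.45. The gene that fell was Cmas, which activates sialic acid for every sialyltransferase, from 7.78 ± 0.04 to 7.39 ± 0.06 (n = 3; change -0.39 ± 0.08 SE, limma adjusted p = 0.0085). It lost its call without GFP negative 1 and GFP positive 3 together (-0.36).

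Of 7 sulfation genes tested, limma called 3 higher and 0 lower. Tpst2, one of the enzymes that sulfate the tyrosines of PSGL-1, rose by 0.33 ± 0.09 (limma adjusted p = 0.027) and lost its call under 6 of 15 settings, among them leaving out GFP negative 1 or 2 or GFP positive 2 or 3 (0.28 to 0.33). Slc35b3, which carries the sulfate donor into the Golgi, rose by 0.46, a call that ended without GFP negative 1 (0.37), without GFP positive 2 (0.43) and without the pair of GFP negative 1 and GFP positive 3 (0.36). Chst2, which sulfates N-acetylglucosamine, went from 2.77 ± 0.26 to 3.89 ± 0.21, with changes of -0.03 to 0.04 on its other probe sets. Its rise was 0.27 with 32 added. Its values in GFP negative 1 and GFP negative 2 occur 111 and 312 times in the deposited table.

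The 5 glycosidases, which remove these sugars, were all tested, with 3 called higher and 0 lower. Fuca2, an alpha-fucosidase gene, rose by 0.75 ± 0.13 (limma adjusted p = 0.0037) on its brightest probe set, with 0.04 on the second, and Glb1, the lysosomal beta-galactosidase gene, by 0.45. Fuca1, the lysosomal fucosidase gene, rose by 0.33 on its brightest probe set, with -0.07 to 0.27 on its other tested ones. That call ended under 9 of 15 settings, among them leaving out any 1 sample except GFP positive 1 (0.25 to 0.38).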

How the data were processed

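Total RNA of 6 sorted samples, 3 GFP positive and 3 GFP negative, was hybridised to 1 array each. Signals of 45101 probe sets were deposited by the authors on a scale read as log2 from its range. Affymetrix Expression Console was used, per the submitters' processing notes. How probes were summarised, corrected for background and normalized is not stated there. Of all deposited values, 6.49% are among 38 values that occur at least 100 times each, at 0.30 to 4.35, so low signals have limited resolution.

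Values were used as deposited. Probe sets were named where the annotation gives 1 symbol (34945; 932 have several, 9160 are not listed, 64 are controls), without coordinates. The 27022 probe sets at or above the 40th percentile of mean log2 signal were tested with limma 3.58.1 in R 4.3.3 (group as the only term, two-sided, Benjamini-Hochberg over all of them, threshold 0.05). A gene in the pathway list was represented by its brightest probe set. SE comes from this fit. It was also run on simulated data with independent noise and 200 changed probe sets, far fewer than passed here. No error rate for these data is taken from that run. Named were all member probe sets, up to 4 called genes per pathway role by p, the 5 genes most like Fut4, Hdac7 and controls. Members, lists and alternatives were chosen with earlier results of these data known.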

Additional observations from a re-analysis of the deposited data

How the results depend on the processing

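Among the 15 alternatives were quantile normalization, median centring, 32 added in linear units, no filter and a 60th percentile filter. The others were 1 probe set per gene, limma with trend and robust prior, the replicate block, and each sample and 1 pair left out. That pair was GFP negative 1 (lowest actin 3′ minus 5′ signal) and GFP positive 3 (highest TrpnX signal). The highest actin value, 0.53, was in GFP positive 2, so leaving out the pair is no removal of poor RNA by that measure. The direction was kept for every tested member probe set, and for Hdac7, the genes most like Fut4 and the called pathway genes named, in each alternative that tested them. Most of this was fixed in advance. The filters, 1 probe set per gene, the trend and robust prior and the block leave the change itself as it is. Where the groups do not overlap, samples left out and the added 32 cannot turn a sign either. There only quantile normalization and median centring could. For B4galt3, B4galt4 and B4galt5, which did not pass, the sign turned, with median centring to -0.04 for B4galt3 and -0.07 for B4galt4, and without GFP positive 1 to 0.02 for B4galt5. Fut4-ps1 kept its direction, at -0.58 to -0.09. The number of member probe sets called outside Fut4, 7 as reported, was 4 with 1 probe set per gene, all higher, since only 6 are then tested and St3gal6 is read on its brightest one. It was 5 to 8 with single samples left out. The number of pathway genes called, 24 as reported, was 16 to 25 with single samples left out and 13 without GFP negative 1 and GFP positive 3 together. Of 575 single values compared, 64 lost their call, 2 gained one and 13, all without a test, moved by more than the spread between replicates.

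As a check of pairing, the deviations of same-numbered samples from their group means had correlations of 0.303, 0.242 and 0.0757 across probe sets, and of 0.474, 0.348 and 0.251 across genes; the highest correlation of each sample was with its own number. The third value across probe sets is low and the labels do not state pairing, so the numbers were not counted as pairs, although the values across genes leave this unsettled. With the replicate block 6 member probe sets were called, St3gal1 losing its call, and 26 pathway genes. Of these St3gal2, Fut8, Slc35a1 and Neu1 gained a call, while Galnt2 and St3gal5 lost theirs. Low signal limits Gcnt1, the second probe sets of Fut4 and St3gal1, and the size of the falls of Fut4 and St3gal6.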
